A study of Mus musculus with 62 samples.

Results

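Rfx5, its partners in the regulatory factor X complex and the major histocompatibility complex class II genes that the complex controls were examined across the developing and adult brain of trisomic mice. The genes were 8 of the 27179 in the count tables: Rfx5, Rfxap, Rfxank, Ciita, Cd74, H2-Aa, H2-Ab1 and H2-Eb1. Rfx5 was chosen by its lower counts in adult female Ts65Dn than in adult female euploid hippocampus, and the other 7 genes were taken for their known place in the same pathway. That contrast is therefore given as a description with no test, for all 8 genes, as are the further female and between-sex values of Rfx5 itself. Males, embryonic (E17.5) forebrain and the partner genes in the Brwd1-restored females did not enter the choice, and these were tested. The tests were chosen with earlier results of these data known. The Brwd1-restored female comparisons share their euploid or Ts65Dn libraries with the contrast that selected Rfx5.

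RFX5, RFXAP and RFXANK form a DNA-binding complex that sits on the X box of class II promoters, next to the Y box bound by NF-Y. CIITA does not bind DNA itself but docks on this assembly and switches class II genes on, and CD74, the invariant chain, guards the groove of newly made class II molecules until peptide is loaded. In brain, class II is known mainly from microglia under stimulation, from macrophages of the borders and choroid plexus, and from rare dendritic and B cells, whereas the RFX subunits are made by most cells.

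The study asked how an extra copy of Brwd1, which encodes a bromodomain reader of acetylated histones and lies in the segment triplicated in Ts65Dn mice, affects the trisomic brain. Poly(A) RNA was sequenced from E17.5 forebrain of 8 euploid and 7 Ts65Dn mice, whose sex the labels do not give, and from hippocampus of 6-week-old mice. The adult groups were 8 euploid, 7 Ts65Dn and 8 Ts65Dn;Brwd1+/- males, and 8 females of each genotype. Ts65Dn;Brwd1+/- mice (here Brwd1-restored) carry the Ts65Dn segment with 1 Brwd1 allele inactivated by the repro5 mutation, so that Brwd1 alone returns to 2 functional copies. All groups came from Ts65Dn mothers crossed to B6EiC3Sn/J or Brwd1+/- fathers on a mixed background with DBA/2J. Ts65Dn mice also carry, in every cell, triplicated genes other than those shared with human chromosome 21, and the repro5 allele is present in every cell too. The paper states that its molecular analyses counted each animal separately, without pooling. The p-values measure the spread between these libraries only.

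Libraries held 33.58 to 137.1 M assigned counts in adults and 14.86 to 62.62 M at E17.5. Median Brwd1 was 106.7, 150.6 and 139.2 CPM (counts scaled to an equal, TMM-adjusted library total) in euploid, Ts65Dn and Brwd1-restored males, 124.1, 163.3 and 146.7 in females, and 187.2 and 258.8 in E17.5 euploid and Ts65Dn libraries. Of 38 libraries labelled trisomic, 4 showed no raised expression of the triplicated genes: male Ts65Dn B145, male Brwd1-restored T35 and B138, and female Brwd1-restored B136. Their median log2 difference from euploid over those genes lay between -0.01 and 0.04, against 0.53 to 0.66 in the other 34. Expression of X- and Y-linked genes went against the labelled sex in male Ts65Dn B88 and female euploid B85. Adult values include these 6 libraries unless the text says otherwise, and values without them are given for part of the results. Neuronal markers of hippocampus were present in every adult library, with Camk2a at 4507 to 7913 CPM and Prox1 at 18.18 to 132.5. At E17.5 the summed forebrain markers were lowest in Ts65Dn replicate 7 (205 CPM, against 537.3 to 1442 in the other Ts65Dn and 900.7 to 2126 in euploid libraries). The Y-linked Ddx3y stood at 5.609 to 5.816 log2 CPM in E17.5 euploid 3 and 6 and Ts65Dn 1, 2 and 7. It was at most -2.024 in the other E17.5 libraries. The part of sex in the E17.5 values was not tested.

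The promoter stretches below were searched for the X box, which the complex is known to recognise, and for the Y box bound by NF-Y. RefSeq (GRCm38.p6) gave a promoter for 4 of the 8 genes, and 3 are printed, each covering the 120 bases before a transcript start on the gene's own strand. For H2-Eb1 and H2-Aa that start is the outer end of the annotated gene, and for Rfx5 it lies inside the annotated gene. Capitals mark the X box as searched, GNNACNGAT, or the Y box, ATTGG or its reverse complement CCAAT.

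H2-Eb1 (chr17:34305747-34305866, plus strand): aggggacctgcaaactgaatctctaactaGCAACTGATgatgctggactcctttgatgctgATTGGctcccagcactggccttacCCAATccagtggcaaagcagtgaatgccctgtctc
H2-Aa (chr17:34287824-34287943, minus strand): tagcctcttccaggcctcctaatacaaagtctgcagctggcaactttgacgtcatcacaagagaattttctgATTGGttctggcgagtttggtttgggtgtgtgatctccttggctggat
Rfx5 (chr3:94953988-94954107, plus strand): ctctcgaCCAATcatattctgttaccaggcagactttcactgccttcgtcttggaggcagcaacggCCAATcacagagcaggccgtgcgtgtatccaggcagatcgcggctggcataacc

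In the H2-Eb1 promoter the X box matched at -91 to -83 and was followed by ATTGG at -59 to -55. H2-Aa held ATTGG at -48 to -44 and no match to the X box letters, and Rfx5 held only the Y box letters, at -113 to -109 and at -54 to -50. Both strands were searched over the whole promoter window of the RefSeq table. The X box letters occurred in 7.82% of 32851 promoters, the Y box letters in 37.4% and both in 3.18%, so a match is a description of these letters and not a bound site.

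Rfx5 was lower in most trisomic libraries of both ages and both sexes. It did not return to the euploid level in Brwd1-restored mice, whose median Brwd1 also stayed above euploid. Rfx5 (Entrez 53970, mm10 chromosome 3, 94950689 to 94961561) encodes the largest, DNA-binding subunit and is not itself triplicated. In the females that selected it, Rfx5 was at 14.79 to 23.59 CPM in euploid libraries (median 20.59) and at 11.4 to 12.77 in Ts65Dn libraries (median 12.39), with no overlap. The difference was -0.71 on the log2 scale (SE 0.10), a level 38.9% lower. The highest euploid library was B85, whose X- and Y-linked genes went against its label. Without B85 and Brwd1-restored B136 the euploid libraries reached 21.18 CPM (median 20.33), and the difference was -0.67 (SE 0.07). Of all 17146 genes with enough counts in that contrast, 3.17% had an adjusted p under 0.1 (edgeR's quasi-likelihood test, Benjamini-Hochberg), which is given as background only, and no call is read for the 8 genes.

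Brwd1-restored females had Rfx5 at 10.09 to 18.88 CPM (median 12.28). The highest of them was B136, without trisomic dosage, and the next highest stood at 13.07, below every euploid library. As a description, Rfx5 differed by 0.07 (SE 0.10) on the log2 scale from Ts65Dn and by -0.64 (SE 0.10) from euploid females. Without B136 and euploid B85 the difference from Ts65Dn was -0.04.

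In males, which the choice did not use, euploid libraries had 15.52 to 19.36 CPM of Rfx5 (median 16.7) and Ts65Dn libraries 11.62 to 19.27 (median 12.23). The groups overlapped through B145 alone, the library without trisomic dosage. The other 6 Ts65Dn libraries lay at or below 13.49. Over all labelled libraries Rfx5 fell short of the threshold, at -0.35 (SE 0.10) on the log2 scale with adjusted p = 0.151 in edgeR's quasi-likelihood test.

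Without the 6 libraries that went against their labels the male difference was -0.44 (SE 0.06) with edgeR adjusted p = 0.000265, and without B145 alone adjusted p was 0.0018. DESeq2 on all male libraries gave adjusted p = 0.046. Over 12 such alternatives the adjusted p ran from 7.48e-05 to 0.241 and was under 0.1 in 5.

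Brwd1-restored males had 11.41 to 15.7 CPM of Rfx5 (median 12.66), with T35 and B138, the pair without trisomic dosage, highest at 15.7 and 15.61. The other 6 stayed at or below 13.31, under every euploid male. Against euploid males Rfx5 was lower by 22.9% (log2 -0.37, SE 0.09, edgeR adjusted p = 0.0898). Without the 6 libraries the value was -0.47 (SE 0.06, edgeR adjusted p = 5.19e-05). Against Ts65Dn males the difference was -0.03 (SE 0.10, edgeR adjusted p = 0.982). The Ts65Dn and Brwd1-restored comparisons share their euploid libraries. Leaving out 1 library at a time gave adjusted p from 0.00934 to 0.184 for Brwd1-restored against euploid males, and the call was lost in 15 of 23 such fits: without Ts65Dn B25 or B52, without euploid B79, B80, B84, B100, B110, B122 or B139, or without Brwd1-restored B24, B26, B51, B69, B94 or B137.

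At E17.5 Rfx5 was at 15.17 to 18.81 CPM in euploid forebrain (median 16.75) and at 8.621 to 17.38 in Ts65Dn forebrain (median 11.06). Of the 7 Ts65Dn libraries, 6 lay below every euploid one. The exception was replicate 7, whose triplicated genes were raised like those of the others, by 0.54 on the log2 scale, and whose forebrain markers were the lowest of all 15. Rfx5 fell by 30.6% (log2 -0.53, SE 0.13, edgeR adjusted p = 0.0691). Without Ts65Dn replicate 7 the value was -0.64 (SE 0.10, edgeR adjusted p = 0.00241), beside 0.799% of all genes called, and adjusted p rose above 0.1, up to 0.152, without any of euploid 1, 4, 6 or 8 or Ts65Dn 2, 3, 4, 5 or 6.

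**Figure D1:**
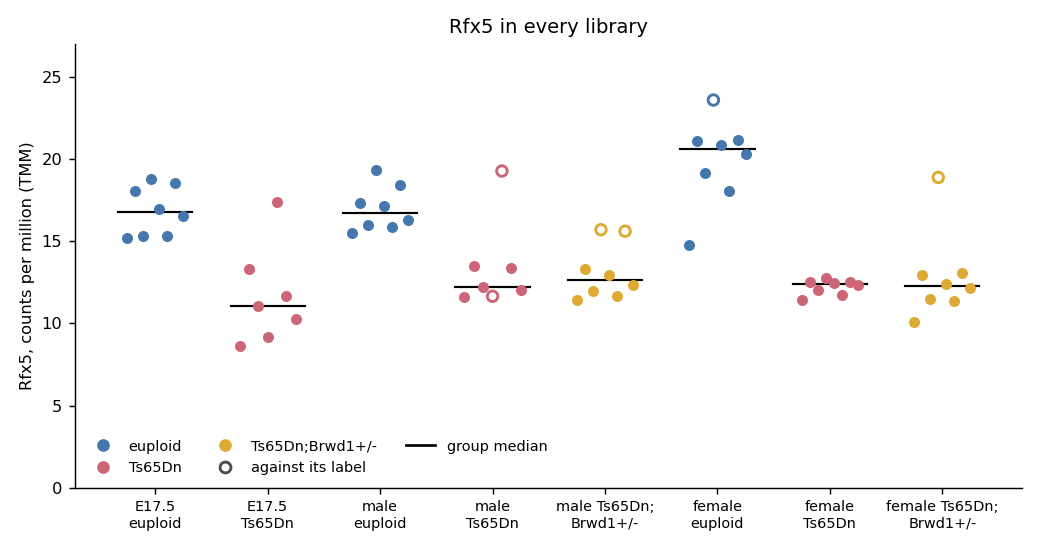
Rfx5 in CPM (vertical axis, starting at 0) for each library in the 8 groups (horizontal axis), with 1 point per library, a black line at the group median and open circles for the 6 libraries that went against their labels. Female Ts65Dn libraries sit between 11.4 and 12.77 and female euploid libraries between 14.79 and 23.59, and the high points in the male Ts65Dn and Brwd1-restored groups are open circles.

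Across adults the Rfx5 level went with trisomic dosage within the trisomic labels. The 27 trisomic-labelled libraries with raised triplicated genes held 10.09 to 13.49 CPM (median 12.23), and the 4 without held 15.61 to 19.27 (median 17.29), with no overlap. Euploid adults ranged from 14.79 to 23.59 CPM. These are descriptions, since the female libraries among them selected Rfx5.

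**Figure D2:**
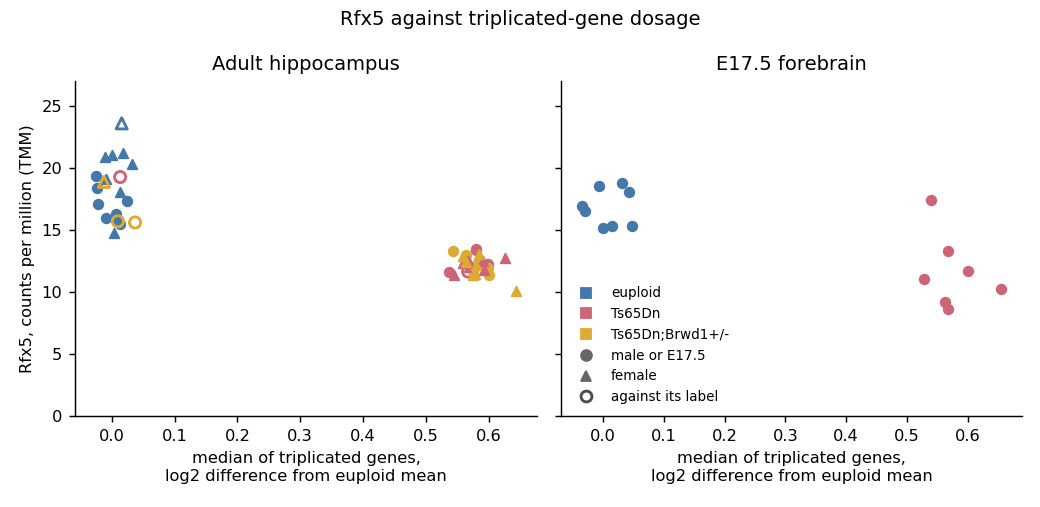
Rfx5 in CPM (vertical axis) against the median log2 difference of the triplicated genes from the euploid mean (horizontal axis), for adult hippocampus on the left and E17.5 forebrain on the right, with 1 point per library, triangles for females and open symbols for libraries against their labels. The 4 adult libraries with a trisomic label and dosage near 0 lie at 15.61 to 19.27, among the euploid libraries.

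The genes around Rfx5 on chromosome 3 were taken as those starting within 250 kb, 17 in all, of which 16 had enough counts for the test. Counts at unadjusted p under 0.05, here and below, stand beside these shares of all genes in edgeR's test. They were 12.1% at E17.5, 8.91% in male Ts65Dn, and 10.1% and 11.2% in Brwd1-restored males and females, each against euploid. Against Ts65Dn they were 7.48% in Brwd1-restored males and 3.52% in females, and 3.73% and 11.1% for the sex differences in restoration and trisomy. At E17.5, 11 were lower and 5 higher in Ts65Dn and none passed the threshold in edgeR (2 at unadjusted p under 0.05, 0 by DESeq2). In male Ts65Dn against euploid, 5 were lower and 11 higher, again with 0 past it in edgeR (2 unadjusted, 0 by DESeq2). In Brwd1-restored against euploid mice, 9 were lower and 7 higher in males (0 past it in edgeR, 2 unadjusted, 0 by DESeq2) and 11 were lower and 5 higher in females (0 past it in edgeR, 3 unadjusted, and 1 by DESeq2, Gabpb2, lower). B230398E01Rik, which overlaps Rfx5, was the 1 neighbour too low to test, and the kit did not keep strand, so its reads could not be told from those of Rfx5.

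The genes whose levels most resembled Rfx5 among 16813 in the 47 adult libraries, by Spearman correlation of log2 CPM after subtracting group means, were Pcdhb19 (0.69), Skp2 (0.65), Zdhhc21 (0.64), Ap4m1 (0.64) and Thoc2 (0.64). Without the 6 libraries the leading 5 were other genes, headed by Gm7340 (0.73), so the order rested on those libraries. None of the other 7 genes of the pathway came near it, with coefficients from -0.35 to 0.21.

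Rfxap and Rfxank, the other 2 subunits, did not pass the threshold in any comparison tested. Rfxap (Entrez 170767, chromosome 3, 54803115 to 54807791), the RFX5-associated protein, was at 39.36 to 43.71 CPM in E17.5 euploid libraries and 37.23 to 48.43 in Ts65Dn libraries (log2 difference 0.05, SE 0.06, edgeR adjusted p = 0.737). In males its medians were 33, 32.48 and 30.82 CPM in euploid, Ts65Dn and Brwd1-restored libraries, and the 3 overlapping ranges spanned 28.12 to 36.83. The male differences from euploid were -0.06 in Ts65Dn (SE 0.05, edgeR adjusted p = 0.802) and -0.09 in Brwd1-restored mice (SE 0.05, edgeR adjusted p = 0.567). Female medians were 31.51, 28.89 and 29.57 CPM in the same order, with a Brwd1-restored difference from euploid of -0.05 (SE 0.07, edgeR adjusted p = 0.819).

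Rfxank (Entrez 19727, chromosome 8, 70130806 to 70139197), the ankyrin-repeat subunit, overlaps Nr2c2ap, so some of its unstranded reads may belong to that neighbour. It stood at 8.973 to 16.06 CPM in E17.5 euploid libraries and 9.802 to 13.23 in Ts65Dn libraries (log2 difference -0.14, SE 0.12, edgeR adjusted p = 0.635). Adult group medians spanned only 8.748 to 9.97 CPM. Male Ts65Dn differed from euploid by 0.05 (SE 0.09, edgeR adjusted p = 0.921), and male Brwd1-restored by less than 0.01 in either direction depending on the scaling.

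The NF-Y subunits, Creb1 and the other RFX family genes formed a list of 11. At E17.5, 8 of the 9 tested were lower in Ts65Dn, 1 of them at unadjusted p under 0.05 and 0 past the threshold in edgeR or DESeq2. In males 10 were tested, 5 lower and 5 higher in Ts65Dn, with 0 past the threshold by either tool and 0 at unadjusted p under 0.05. For Brwd1-restored against euploid mice, 8 of 10 were lower in males (2 at unadjusted p under 0.05, 0 past the threshold by either tool) and 9 of 10 in females (4 at unadjusted p under 0.05, 0 past it in edgeR and 1 by DESeq2). That gene was Rfx1, at -0.47 in females (SE 0.13, edgeR adjusted p = 0.136). In female Ts65Dn, the contrast that selected Rfx5, Rfx1 was lower by 0.46 on the log2 scale (SE 0.13).

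Ciita, the coactivator, was higher in male Ts65Dn than in male euploid hippocampus in most libraries without passing the main threshold. Ciita (Entrez 12265, chromosome 16, 10480014 to 10531064) lies proximal to the triplicated segment and overlaps Dexi. Euploid males had 0.759 to 1.595 CPM (median 1.11) and Ts65Dn males 1.133 to 2.573 (median 1.702). All 7 Ts65Dn libraries lay above the euploid median and 5 above the highest euploid library.

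The male Ciita difference was 0.64 on the log2 scale (SE 0.18, 56.3% higher, edgeR adjusted p = 0.146). DESeq2 gave adjusted p = 0.0516. The adjusted p over 12 alternatives ran from 0.00756 to 0.273, with 4 under 0.1, and it was 0.133 without the 6 libraries. It passed when euploid B100 (0.0602), Ts65Dn B40 (0.0819) or Brwd1-restored B138 (0.0988) was left out.

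Brwd1-restored males had 0.8105 to 1.709 CPM of Ciita (median 1.232), overlapping both other groups. The difference from Ts65Dn was -0.41 (SE 0.18, edgeR adjusted p = 0.634) and from euploid 0.24 (SE 0.18, edgeR adjusted p = 0.699). Without the 6 libraries these were -0.29 (edgeR adjusted p = 0.687) and 0.36 (edgeR adjusted p = 0.438). Female medians were 1.824, 1.446 and 1.526 CPM in euploid, Ts65Dn and Brwd1-restored libraries, with ranges that overlapped throughout. Brwd1-restored females differed from euploid by -0.28 (SE 0.22, edgeR adjusted p = 0.66). At E17.5 Ciita rested on 10 to 75 counts in euploid and 9 to 79 in Ts65Dn libraries, at a log2 difference of 0.40 (SE 0.27, edgeR adjusted p = 0.545).

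Ciita is induced by interferon gamma, and 7 genes of that route were taken, among them Ifngr1, Ifngr2, Jak1, Jak2, Irf1 and Usf1. Ifngr2, a receptor chain that is itself in the triplicated segment, was the 1 of 7 that passed in edgeR in each tested comparison with euploid. At E17.5 DESeq2 also called Usf1, which stood at -0.19 in edgeR (SE 0.06, edgeR adjusted p = 0.15). Ifngr2 rose by 0.63 at E17.5 (SE 0.07, edgeR adjusted p = 3.94e-05) and by 0.58 in male Ts65Dn (SE 0.12, edgeR adjusted p = 0.0248). In Brwd1-restored mice it rose by 0.52 in males (SE 0.11, edgeR adjusted p = 0.0553) and by 0.66 in females (SE 0.09, edgeR adjusted p = 0.00041). The transcription factor Irf1 stood at -0.14 (SE 0.10) in male Ts65Dn.

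Class II genes and the invariant chain were rare transcripts whose spread between libraries of 1 group was several-fold. In hippocampus as in any bulk sample, fewer cells of a type and less RNA per cell cannot be told apart. In females all 4 genes had higher medians in both trisomic genotypes than in euploid libraries, with overlapping ranges. In males the direction depended on single libraries.

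Cd74 (Entrez 16149, chromosome 18, 60803849 to 60812652) was at 0.7068 to 6.095 CPM in euploid females (median 2.564), 1.909 to 11.03 in Ts65Dn females (median 5.1) and 2.952 to 11.64 in Brwd1-restored females (median 6.812). All 8 Brwd1-restored libraries lay above the euploid median and 5 above the highest euploid library. The Brwd1-restored difference from euploid was 1.06 on the log2 scale (SE 0.43, 2.08-fold, edgeR adjusted p = 0.358), and from Ts65Dn it was 0.13 (SE 0.42, edgeR adjusted p = 1). With the choroid plexus score as a covariate the difference from euploid passed (SE 0.21, edgeR adjusted p = 0.0186), as it did with 3 factors of unwanted variation estimated from the residuals (1.17, edgeR adjusted p = 0.00241).

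Male Cd74 was at 1.542 to 7.143 CPM in euploid (median 2.252), 0.8507 to 16.6 in Ts65Dn (median 2.07) and 1.193 to 8.638 in Brwd1-restored libraries (median 2.719). The highest male Ts65Dn library was B88, one of those against its label. Male Ts65Dn differed from euploid by 0.38 (SE 0.59, edgeR adjusted p = 0.909), and without the 6 libraries the value turned to -0.60. The Brwd1-restored difference from Ts65Dn turned from -0.17 to 1.01 in the same way.

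H2-Aa (Entrez 14960, chromosome 17, 34282744 to 34287823) encodes the alpha chain of the H2-A molecule. Its female libraries ran from 0.2524 to 2.237 CPM in euploid (median 1.018), 0.5078 to 5.315 in Ts65Dn (median 1.523) and 0.8823 to 4.159 in Brwd1-restored mice (median 2.461). Brwd1-restored females differed from euploid by 0.87 (SE 0.49, edgeR adjusted p = 0.52), or by 0.67 without the 6 libraries (SE 0.53, edgeR adjusted p = 0.746). Male medians were 0.7402, 0.8405 and 0.6874 CPM in euploid, Ts65Dn and Brwd1-restored libraries. The male Ts65Dn difference was 0.25 (SE 0.65, edgeR adjusted p = 0.947), and -0.74 without the 6 libraries.

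H2-Ab1 (Entrez 14961, chromosome 17, 34263227 to 34269418) encodes the beta chain of the same molecule. Female medians were 0.5502 CPM in euploid (range 0.2685 to 1.39), 1.009 in Ts65Dn (0.1828 to 4.668) and 1.418 in Brwd1-restored libraries (0.7009 to 2.579). The Brwd1-restored difference from euploid was 1.06 (SE 0.48, edgeR adjusted p = 0.411), or 0.88 without the 6 libraries (SE 0.52, edgeR adjusted p = 0.633). In males the medians were 0.6349, 0.5018 and 0.8846 CPM, and Ts65Dn differed from euploid by -0.01 (SE 0.61, edgeR adjusted p = 0.998), or by -0.97 without the 6 libraries (SE 0.53, edgeR adjusted p = 0.497).

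H2-Eb1 (Entrez 14969, chromosome 17, 34305867 to 34316674), the beta chain of H2-E and the gene whose promoter holds the X box letters printed above, had female medians of 0.713 CPM in euploid (range 0.4698 to 2.078), 2.13 in Ts65Dn (0.4672 to 6.198) and 2.088 in Brwd1-restored libraries (0.9153 to 4.087). The Brwd1-restored difference from euploid was 1.06 (SE 0.46, edgeR adjusted p = 0.384), or 0.95 without the 6 libraries (SE 0.49, edgeR adjusted p = 0.562). Male medians were 1.06, 0.753 and 0.8991 CPM, and Ts65Dn differed from euploid by 0.15 (SE 0.53, edgeR adjusted p = 0.965), or by -0.58 without the 6 libraries. With 3 factors of unwanted variation Cd74 and the 3 class II genes passed in Brwd1-restored against euploid females. The edgeR adjusted p was 0.0597 for H2-Aa, 0.0373 for H2-Ab1 and 0.0188 for H2-Eb1. That fit called 3180 of all 17146 genes, so many genes outside the pathway passed too.

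As a description of the contrast that selected Rfx5, female Ts65Dn differed from euploid by 0.92 for Cd74 (SE 0.43), 0.92 for H2-Aa (SE 0.49), 1.29 for H2-Ab1 (SE 0.48) and 1.31 for H2-Eb1 (SE 0.46) on the log2 scale. Rfx5 itself lay on the other side of 0 in the same libraries. Rfxap and Rfxank stood at -0.10 each (SE 0.07 and 0.11) and Ciita at -0.22 (SE 0.22).

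**Figure D3:**
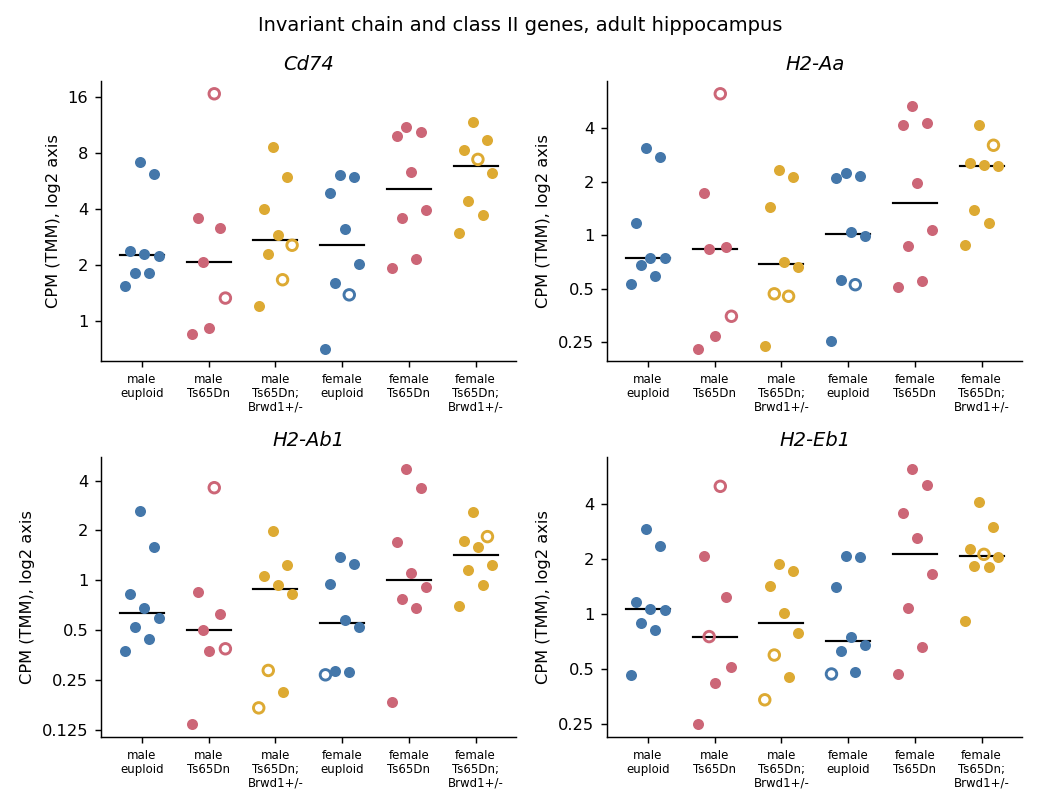
Cd74, H2-Aa, H2-Ab1 and H2-Eb1 in CPM (vertical axes, log2 scale) in each adult hippocampus library by group (horizontal axes), with 1 point per library, a black line at the group median and open circles for libraries against their labels. Spread within a group is several-fold, and Cd74 medians are 2.564, 5.1 and 6.812 in euploid, Ts65Dn and Brwd1-restored females.

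Over the 8 genes together, the number past the threshold was 1 of the 6 tested at E17.5 (Rfx5), beside 1.35% of all genes. It was 0 of 8 in male Ts65Dn against euploid (2 at unadjusted p under 0.05 and 2 by DESeq2, Rfx5 and Ciita), beside 0.795% of all genes. In Brwd1-restored against euploid males it was 1 of 8 (Rfx5), beside 0.576% of all genes. Without the 6 libraries Rfx5 also passed in male Ts65Dn, beside 1.54% of all genes. The median log2 difference over the genes tested was 0.18 at E17.5, against -0.01 over all genes, and 0.10 in male Ts65Dn, against 0.00.

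None of the 8 genes passed the threshold in Brwd1-restored against Ts65Dn mice of either sex. Brwd1 itself did not pass there either. It was among 39 triplicated genes of which edgeR and DESeq2 called 0 in males and 0 in females. Its median was 139.2 CPM in Brwd1-restored, 150.6 in Ts65Dn and 106.7 in euploid males, and 146.7, 163.3 and 124.1 in females. For Brwd1-restored against Ts65Dn, edgeR called 0 of 8 in males (1 at unadjusted p under 0.05, Ciita, and 0 by DESeq2) and 0 of 8 in females (0 unadjusted and 0 by DESeq2, which gave 4 of them no adjusted p), beside 0% of all genes in males and 0% in females. With 3 factors of unwanted variation edgeR called 584 genes in males and 425 in females, and still 0 of the 8. In Brwd1-restored against euploid females, leaving Rfx5 aside because the same euploid libraries selected it, 0 of the other 7 passed in edgeR (3 at unadjusted p under 0.05, and 0 by DESeq2), beside 0.729% of all genes. For the sex difference in the effect of restoration, edgeR called 0 of 8 (0 at unadjusted p under 0.05 and 0 by DESeq2), beside 0% of all genes. For that in the effect of trisomy, which includes the contrast that selected Rfx5, it called 0 of 8 (2 unadjusted, and 0 by DESeq2, which gave 4 no adjusted p), beside 0% of all genes. The values of the latter, as a description, were -0.36 (SE 0.14) for Rfx5 and -0.86 (SE 0.28) for Ciita, female minus male. Factors of unwanted variation changed that count, as given in the closing section.

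**Figure D4:**
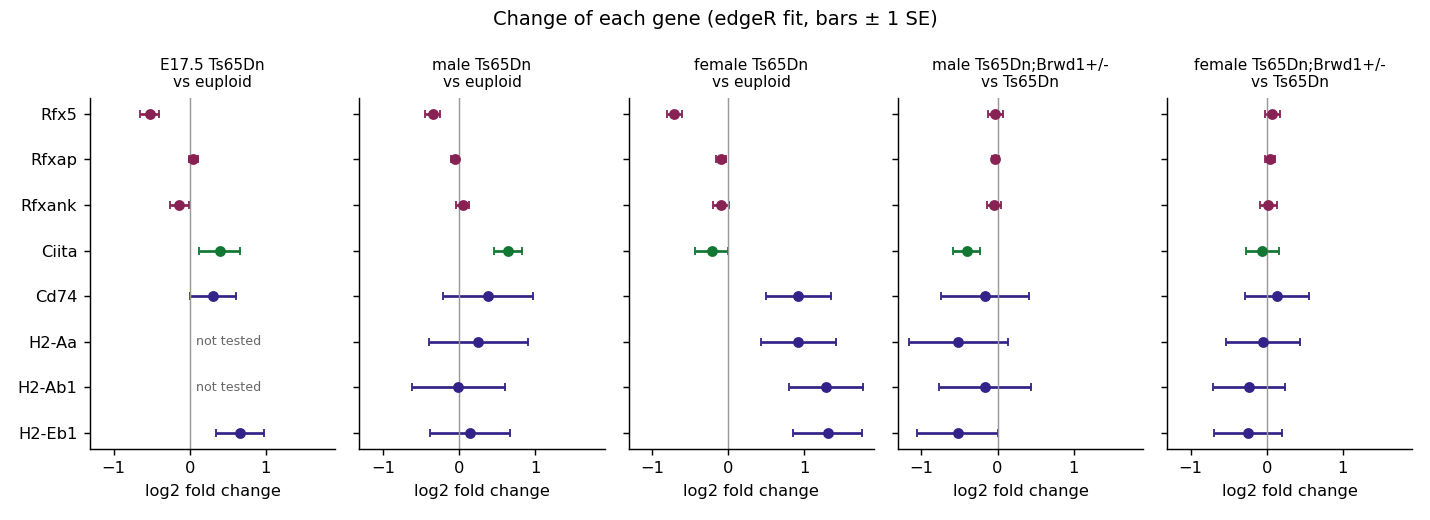
Log2 differences (horizontal axis) with their standard errors for the 8 genes (vertical axis) in the comparisons of E17.5, male and female libraries. Rfx5 lies below 0 in Ts65Dn against euploid, at -0.53 at E17.5, -0.35 in males and -0.71 in females. In Brwd1-restored against Ts65Dn it lies at -0.03 in males and 0.07 in females. Cd74 and the class II genes have standard errors from 0.30 to 0.65.

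The other genes of the class II route, taken as a list of 11 (H2-Ea, H2-Eb2, H2-DMa, H2-DMb1, H2-DMb2, H2-Oa, H2-Ob, Ctss, Lgmn, Ifi30 and Marchf1), did not pass outside the female contrast that selected Rfx5. Of these, 5 were tested at E17.5, 8 in males and 10 in females. In Brwd1-restored against euploid females all 10 were higher, 2 at unadjusted p under 0.05 and 0 past the threshold in edgeR or DESeq2. In male Ts65Dn, 4 were higher and 4 lower, 1 at unadjusted p under 0.05 and 0 past the threshold by either tool. Ctss, the cathepsin that trims the invariant chain, stood at 0.28 in male Ts65Dn (SE 0.09, edgeR adjusted p = 0.251) and, as a description, at 0.45 in female Ts65Dn (SE 0.11).

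The cells that could carry class II were followed through their markers. The 14 microglial markers summed to 435.8 to 576.4 CPM over the adult libraries, with group medians from 482 to 511.2. Aif1, a calcium-binding protein of microglia, was the 1 of 14 that passed in male Ts65Dn (0.56, SE 0.14, edgeR adjusted p = 0.0761) and in male Brwd1-restored against euploid (0.57, SE 0.14, edgeR adjusted p = 0.0656). Markers of border-associated macrophages summed to 21.51 to 46.71 CPM, with 0 of 8 past the threshold in any adult comparison by edgeR or DESeq2 (0 at unadjusted p under 0.05). B88 was the highest male Ts65Dn library for these markers at 46.71, as it was for Cd74.

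Markers of B cells and dendritic cells were mixed. Ms4a1 had no count in 28 of the 47 adult libraries, Cd79a and Cd79b reached at most 0.4152 and 0.4111 CPM, and Ighm ran from 4.846 to 16.55. The 5 B cell markers summed to 5.464 to 16.99 CPM, the top value in B88. Of the dendritic markers Ccr7 had no count in 18 and Xcr1 none in 20 libraries, and Cd209a reached at most 1.112 CPM, while Flt3 ran from 6.266 to 12.8 and Zbtb46 from 2.957 to 6.56 CPM. The 7 dendritic markers summed to 11.63 to 17.95 CPM, with 0 of 5 tested past the threshold in edgeR or, of those given an adjusted p, in DESeq2 (1 at unadjusted p under 0.05 in male Brwd1-restored against Ts65Dn, and 1 in the sex difference in trisomy).

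Choroid plexus, which lies against the hippocampus and houses class II-bearing macrophages, came with the tissue in very different amounts. Its 9 markers, Ttr included, summed to 33.06 to 6358 CPM over the adult libraries. Medians were 2035, 598.4 and 2150 CPM in euploid, Ts65Dn and Brwd1-restored females, and 1089, 137.6 and 842.2 in males. Some libraries rich in choroid markers were also rich in Cd74, among them B88 at 5350, T141 at 5910 and B167 at 4932 CPM of choroid markers. T141 and B88 led their Ts65Dn groups in both. In the other adult groups the highest choroid sum and the highest Cd74 fell in different libraries. These were B17 and B125 in female euploid, B176 and B167 in female Brwd1-restored, B95 and B139 in male euploid, and B26 and B94 in male Brwd1-restored mice. B94, with the highest Cd74 of its group (8.638 CPM), held only 127.5 CPM of choroid markers. The relation of Cd74 to the choroid sum was not tested by itself. The covariate values for Cd74 given above hold the choroid score fixed, and no comparison of the 9 markers passed the threshold in adults by edgeR or DESeq2 (0 at unadjusted p under 0.05).

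**Figure D5:**
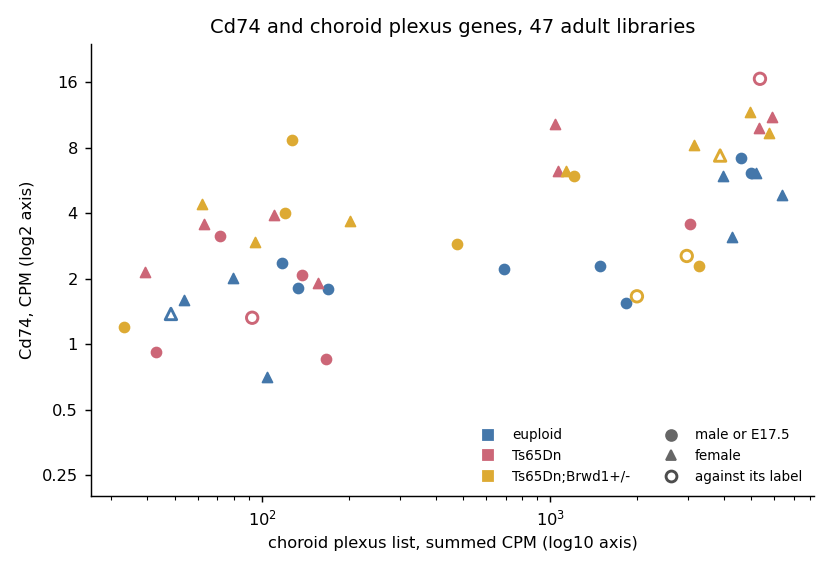
Cd74 in CPM (vertical axis) against the sum, in the same unit, of 9 choroid plexus markers (horizontal axis, both logarithmic) in the adult hippocampus libraries, with 1 point per library coloured by genotype and females as triangles. The choroid sum spans 33.06 to 6358, and libraries such as B94 combine high Cd74 (8.638) with a low choroid sum (127.5).

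At E17.5 class II was at the edge of detection. Cd74 rested on 4 to 21 counts in euploid and 8 to 30 in Ts65Dn libraries, with a log2 difference of 0.30 (SE 0.30, edgeR adjusted p = 0.661). H2-Aa (0 to 14 counts in euploid, 7 to 24 in Ts65Dn) and H2-Ab1 (0 to 8 and 0 to 14) were too low to test. H2-Eb1 was at 0.1055 to 0.584 CPM in euploid (median 0.3652) and 0.3708 to 1.027 in Ts65Dn libraries (median 0.4941), all 7 of the latter above the euploid median, at 0.66 (SE 0.31, edgeR adjusted p = 0.407).

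Class I antigen presentation, a list of 12, was read beside it. At E17.5 B2m, the light chain of class I, rose by 0.56 (SE 0.11, edgeR adjusted p = 0.025) and H2-K1 by 0.65 (SE 0.16, edgeR adjusted p = 0.0634), the 2 of 12 that passed, beside 1.35% of all genes. In adult males and in Brwd1-restored females 0 of 12 passed by edgeR or DESeq2, with 2 at unadjusted p under 0.05 in each comparison with euploid. Of 8 markers of border-associated macrophages, 7 were higher and 1 lower in the same E17.5 Ts65Dn libraries. Lyve1 (0.75, SE 0.15, edgeR adjusted p = 0.018), F13a1 (0.54, SE 0.13, edgeR adjusted p = 0.0633) and Mrc1 (0.56, SE 0.14, edgeR adjusted p = 0.0966) passed, 3 of 8, beside the same 1.35% of all genes. Their list summed to 54.7 to 99.66 CPM in euploid and 75.08 to 110.7 in Ts65Dn libraries. All 9 choroid markers were higher there too, 5 at unadjusted p under 0.05, 0 past the threshold in edgeR and 2 in DESeq2. Without Ts65Dn replicate 7, B2m (0.55, SE 0.12, edgeR adjusted p = 0.0512) and Lyve1 (0.72, SE 0.16, edgeR adjusted p = 0.0455) were the 1 of 12 and 1 of 8 that passed, beside 0.799% of all genes. H2-K1 then stood at 0.60 (edgeR adjusted p = 0.132). The forebrain markers were lower in Ts65Dn libraries in 6 of 6, 1 at unadjusted p under 0.05 and 0 past the threshold in edgeR or DESeq2. The part of these cell markers in the class I and class II values, and in the lower Rfx5 at this age, was not tested.

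Whether the partners and targets followed Rfx5 from library to library was asked across the 47 adult libraries, on log2 CPM after subtracting group means, with 7 relations and permutation p adjusted over them. Pearson's r with Cd74 was -0.30 (adjusted permutation p = 0.107) and Spearman's rho -0.31 (adjusted permutation p = 0.0736). H2-Aa, H2-Ab1 and H2-Eb1 gave r of -0.28, -0.28 and -0.27 (each adjusted permutation p = 0.107) and rho of -0.32, -0.36 and -0.33 (each adjusted permutation p = 0.0653). Each was negative within males and within females, with r of -0.28 and -0.31 for Cd74, -0.36 and -0.19 for H2-Aa, -0.38 and -0.18 for H2-Ab1 and -0.32 and -0.23 for H2-Eb1.

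The RFX partners and the coactivator gave weaker relations with Rfx5. Rfxap stood at r of -0.08 (adjusted permutation p = 0.611) and rho of -0.07 (adjusted permutation p = 0.66), 0.19 in males and -0.25 in females. Rfxank stood at r of -0.28 (adjusted permutation p = 0.107) and rho of -0.22 (adjusted permutation p = 0.193), -0.10 in males and -0.40 in females. Ciita stood at r of 0.24 (adjusted permutation p = 0.145) and rho of 0.22 (adjusted permutation p = 0.193), but at -0.11 in males against 0.49 in females, so that the pooled value did not hold within sexes.

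Without B136 and B145, the 2 libraries farthest from the Rfx5 median, r was -0.35 for Cd74, -0.34 for H2-Aa, -0.37 for H2-Ab1, -0.34 for H2-Eb1, -0.18 for Rfxap, -0.21 for Rfxank and 0.28 for Ciita. Without the 6 libraries, over 41, r was -0.28 for Cd74, -0.26 for H2-Aa, -0.20 for H2-Ab1 and -0.21 for H2-Eb1, with rho of -0.21, -0.23, -0.19 and -0.21 (adjusted permutation p from 0.280 to 0.284 for rho). In the same libraries r was 0.47 for Ciita (adjusted permutation p = 0.0701), -0.31 for Rfxap (adjusted permutation p = 0.113) and -0.13 for Rfxank (adjusted permutation p = 0.525). At the threshold of 0.05 kept for relations none of the 7 passed with all libraries or without the 6. At the 0.1 used for genes, rho passed for Cd74 and the 3 class II genes with all libraries and for none without the 6, and r passed for Ciita without the 6. The female libraries that selected Rfx5 are among these points, and all share their library's depth and tissue make-up.

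The class II genes moved together instead. The 5 genes most like Cd74 by Spearman correlation over the same libraries were H2-Aa (0.97), Tspo (0.90), H2-Eb1 (0.88), H2-Ab1 (0.87) and Tgfbi (0.86), and the same 5 genes led without the 6 libraries. Tspo encodes a mitochondrial protein found in reactive microglia and macrophages, and Tgfbi an extracellular matrix protein.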

How the data were processed

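Single-read TruSeq RNA v2 libraries, which keep no strand, were sequenced on 2 flow cells whose reads the authors joined. Per the labels and the study's methods, reads were aligned to mm10 with HISAT2 (version 2.1.0 in the submitters' processing notes) and counted per gene with featureCounts 2.0.1; the notes also list mm9 and DESeq2 2.11.40.6. The authors deposited raw counts of 27179 genes with Entrez numbers, 1 table for E17.5 and 1 for adults, and these counts were used as deposited. The study removed unwanted variation with RUVr before DESeq2, with a number of factors not given in the sources used here.

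Groups came from the labels. Counts were filtered with filterByExpr (minimum count 10), scaled by TMM and fitted with edgeR 4.0.16 (robust quasi-likelihood test, R 4.3.3), separately for E17.5, males and females, with all 3 genotypes of a sex in 1 fit, and once for all adults for sex differences. Benjamini-Hochberg adjustment ran over all tested genes, with a threshold of 0.1 (0.05 for relations). CPM values are per TMM-scaled library. Relations rested on CPM logarithms (prior count 0.5) and 100000 permutations within groups. Alternatives were DESeq2 1.42.0, 1 or 3 RUVr factors, upper-quartile scaling, no filter, other sets of libraries, choroid or microglial covariates, blocks by replicate or title number, a threshold of 0.05 and single libraries left out. Genes to which DESeq2 gave no adjusted p were not counted as called. No library pair of a group agreed within sampling noise.

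The members, gene lists, rules for naming and tests were chosen with earlier results of these data known. All 8 members were named in every comparison, and from the other lists up to 4 genes past the threshold, otherwise up to 3 by role. Counts for the other lists without the 6 libraries, without E17.5 Ts65Dn replicate 7 and by DESeq2 were chosen after seeing the data. Some list genes are not reported here. Steps were tested on simulated data. Promoters and coordinates came from RefSeq on GRCm38.p6, the same assembly as mm10.

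E17.5 replicate numbers were checked as pairs: over 7 numbers the correlation of deviations ran from -0.13 to 0.23, over 0.1 in 3, so they do not pair the mice. The precision is limited by depth for class II, where E17.5 values rest on as few as 0 to 30 counts a library.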

Additional observations from a re-analysis of the deposited data

Results flagged for a closer look

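In 6 of 64 gene and group combinations, the highest or lowest library stood apart by Dixon's test, where chance marks about 1 in 20, or 3.2. Rfx5 was highest by far in male Ts65Dn B145 (19.27 CPM, next 13.49, a gap of 0.706 of the range) and in female Brwd1-restored B136 (18.88 CPM, next 13.07, a gap of 0.588). Neither library showed raised triplicated genes.

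The other 4 were low counts or small steps. Ciita was lowest in E17.5 Ts65Dn replicate 5 (0.4941 CPM, next 1.066, a gap of 0.65). H2-Ab1 was at 0 in the same library (next 0.1159 CPM, a gap of 0.639) and at 0 in E17.5 euploid replicate 7 (next 0.1055 CPM, a gap of 0.658). Rfxank was highest in male euploid B110 (11.3 CPM, next 9.661, a gap of 0.565).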

How the results depend on the processing

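Besides leaving out single libraries, 683 values of single genes were recomputed: 598 kept direction and side of the threshold, 4 lost it, 39 gained it and 42 turned direction. The number of the 8 genes past the threshold moved in 21 of 106 recomputed comparisons. For male Ts65Dn against euploid it was 0, and 2 with DESeq2, 1 RUVr factor, 3 factors, or DESeq2 with 3 factors, and 1 without the 6 libraries. Over all 16851 genes those fits called, in that order, 249, 322, 781 and 1197, and 259 of 16818 without the 6 libraries. For female Ts65Dn against euploid, the contrast that selected Rfx5, the recomputed counts are among these comparisons, but no call is read for the 8 genes. Of all 17146 genes, DESeq2 called 1050 there, 1 factor 2408, 3 factors 4025, DESeq2 with 3 factors 4375 and the covariate 880. For Brwd1-restored against euploid females it was 1 (Rfx5, which the same euploid libraries selected), 5 with 3 factors by either tool and 2 with the choroid covariate. For the sex difference in trisomy it was 0, and 1 with 1 factor, 4 with 3 factors and 5 with DESeq2 and 3 factors. For Brwd1-restored against euploid males it was 1, and 0 without the filter or at 0.05, and at E17.5 it was 1, and 0 at 0.05 or with the replicate block. The replicate block gave Rfx5 -0.54 (edgeR adjusted p = 0.179). By Pearson's r no correlation passed 0.05, but 1 did when not centred (Cd74 -0.39, adjusted permutation p = 0.0486), where H2-Ab1 and H2-Eb1 had 0.0558 and Rfxap turned to 0.189. The causes were not tested.

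Directions that turned were as follows. In male Ts65Dn against euploid, Cd74, H2-Aa and H2-Eb1 became -0.106, -0.297 and -0.0982 with 1 factor, -0.13, -0.291 and -0.137 with 3, -0.15, -0.308 and -0.149 with DESeq2 and 3, and -0.601, -0.735 and -0.584 without the 6 libraries, and H2-Ab1 0.112 with the choroid covariate. In male Brwd1-restored against Ts65Dn, Cd74, H2-Aa and H2-Ab1 became 0.373, 0.147 and 0.225 with 1 factor, 0.431, 0.198 and 0.358 with 3, 0.434, 0.195 and 0.351 with DESeq2 and 3, and 1.01, 0.723 and 1.11 (H2-Eb1 0.452) without the 6 libraries, and Cd74 0.172 and H2-Ab1 0.145 with the covariate. In Brwd1-restored against euploid males, Rfxank became -0.00267 (DESeq2), -0.00082 (3 factors), -0.00394 (DESeq2 and 3), -0.0036 (upper quartile) and -0.00597 (covariate), H2-Aa 0.231 and H2-Ab1 0.257 with the covariate, and H2-Ab1 0.147 without the 6 libraries. In Brwd1-restored against Ts65Dn females, H2-Aa became 0.0705 (3 factors) and 0.0908 (DESeq2 and 3), Ciita 0.0098 and Cd74 -0.00659 with the covariate, and Rfx5 -0.0362 without the 6 libraries.

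Leaving out each of 62 libraries gave 1218 values of single genes, of which 50 turned direction. Counts ran from 0 to 1 at E17.5, in male Ts65Dn and in Brwd1-restored against euploid males. The genes that turned ran over these fits, on the log2 scale, as follows. In male Ts65Dn against euploid, Cd74 -0.692 to 0.664, H2-Aa -0.875 to 0.572, H2-Ab1 -1.02 to 0.391 and H2-Eb1 -0.623 to 0.407. In male Brwd1-restored against Ts65Dn, Rfx5 -0.0704 to 0.0806, Cd74 -0.467 to 0.909, H2-Aa -0.767 to 0.615, H2-Ab1 -0.453 to 0.851 and H2-Eb1 -0.705 to 0.249. In Brwd1-restored against euploid males, Rfxank -0.0263 to 0.0454, Cd74 -0.0876 to 0.508, H2-Aa -0.515 to 0.066 and H2-Ab1 -0.466 to 0.241. In Brwd1-restored against Ts65Dn females, Rfx5 -0.0362 to 0.109, Rfxap -0.00522 to 0.0793, Rfxank -0.0248 to 0.0852, Ciita -0.128 to 0.0275, Cd74 -0.0279 to 0.304, H2-Aa -0.236 to 0.235, H2-Ab1 -0.402 to 0.182 and H2-Eb1 -0.43 to 0.0522. For Cd74, H2-Aa and H2-Eb1 in male Ts65Dn against euploid, the value below 0 came without B88. Sex differences were not run this way.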

Other observations

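H2-Ea, the partner chain of H2-Eb1, is background-dependent, since the C57BL/6 haplotype is known not to express it. Its count as a percent of that of H2-Eb1, not corrected for length, had a median of 39.2 over the 47 adult libraries and lay under 10 in 3 and over 50 in 20. Male euploid B139 had no H2-Ea count at 2.94 CPM of H2-Eb1, and female Ts65Dn T139 had 0.08 CPM of H2-Ea at 6.198 CPM of H2-Eb1, the highest of its group. The haplotype of each mouse and its part in the class II values were not tested.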
